A study of Drosophila melanogaster with 120 samples.

Results

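The heads of old flies were set against the heads of younger adults: day 50 against day 15 in unmated females of Drosophila melanogaster, the fruit fly. The comparison holds 21 of the 120 arrays of the series, chosen as the heads of these days and paired by population. Day-50 heads gave 11 arrays, 6 of selection populations and 5 of control populations, and day-15 heads gave 10 arrays, 5 of each regime. In the selection regime, 3 populations (1S, 2S and 3S) were bred for late reproduction, with mating held back to 28 and later 40 days of age. In the control regime, 3 populations (1C, 2C and 3C) were mated at 14 days. All populations came from 1 ancestral stock and were sampled after 35 generations, and all flies were kept at 25 °C, with no transgene or drug. The populations are lines bred in the laboratory, and the females were unmated, so the ages were not compared in flies that reproduce. The labels do not say how many heads went into an array.

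Each array gives 1 log2 intensity for each of 16637 transcripts, so a difference of 1 is 2-fold. Each population had 2 biological replicates a day, and their mean was taken. This gave 12 averages, 9 of them of 2 arrays and 3 of 1 array. Those of 1 array are 2C on both days and 3S on day 15. Nothing in the labels says whether the replicates were separate cultures, so the population served as the replicate.

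The head of a fly holds the brain and the compound eyes, together with muscle, cuticle and a layer of fat body, the tissue that stores energy and makes secreted and immune proteins. Ageing of the adult fly is known for a decline in vision, in memory and in egg laying, and for a rise in immune and stress genes. In a bulk head sample, a change in the RNA of a transcript per cell and a change in the number of cells that make it cannot be told apart. The array names transcripts by FlyBase transcript numbers, and the gene table used here tied only 16 of the 16637 to 1 gene symbol. Another 28 were tied to several genes and stay unnamed. The other transcripts are therefore given by number, with no gene name or role. Markers of photoreceptors, neurons, glia and fat body had no tied transcript, so the head label could not be checked against them. Over all transcripts, all 21 heads lay closer to the median head of day 5 (correlation 0.967 to 0.992) than to the median abdomen of day 5 (0.741 to 0.769).

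The 24 heads of these 2 days include 3 arrays that stand apart in their profile and were left out for it. The day-50 head of control population 2C, replicate 1, had a day-1 score of 1.23, on a scale where 0 is the median profile of later days and 1 that of day 1, against -0.0886 to 0.0988 in the 21 arrays kept. The day-15 heads of 2C, replicate 2, and of selection population 3S, replicate 1, had correlations of 0.918 and 0.928 with the median of their day, against 0.970 to 0.994 in the arrays kept. Array medians of those kept lay between 9.66 and 9.96, and the 9 replicate pairs correlated at 0.964 to 0.997 over all transcripts. The labels of 1 array disagree: the 3C head of day 15 used as replicate 1 carries replicate 3 in its title.

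Late in life 144 of the 16637 transcripts changed in heads, 100 of them higher and 44 lower on day 50 (limma, Benjamini-Hochberg adjusted p of 0.05). These are 0.866% of all transcripts tested, 0.601% higher and 0.264% lower. With all 24 heads the count was 35, of which 32 were higher and 3 lower, and leaving out a population gave 77 without 3C, 88 without 3S and 93 without 1S. The falls varied most, with 16 without 3C, 12 without 3S and 15 without 1S, where 61, 76 and 78 rose. The median change of the 100 was 0.83 on the log2 scale, from 0.24 to 2.79. The median change of the 44 was -0.67, from -2.42 to -0.25. Over all transcripts it was -0.01. At least 2-fold was reached by 35 of those that rose and 7 of those that fell, and at least 4-fold by 4 and 2.

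The change had the same direction in all 6 populations for 97 of the 100 and 43 of the 44, a count that the choice of the 144 favours. Over all transcripts the head change had 1 direction in 5.75%, up in 2.81% and down in 2.94%. The median change of the 100 was 0.80 in 1S, 0.75 in 2S, 0.63 in 3S, 0.72 in 1C, 0.92 in 2C and 0.86 in 3C. No array of day 50 overlapped any of day 15 for 28 of the 144, 24 that rose and 4 that fell. That was the case for 0.174% of all transcripts. Over all 16637 transcripts the changes of different populations were only loosely related, with correlations of -0.149 to 0.451 over the 15 pairs of populations (across transcripts, which share arrays within a population).

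**Figure D1:**
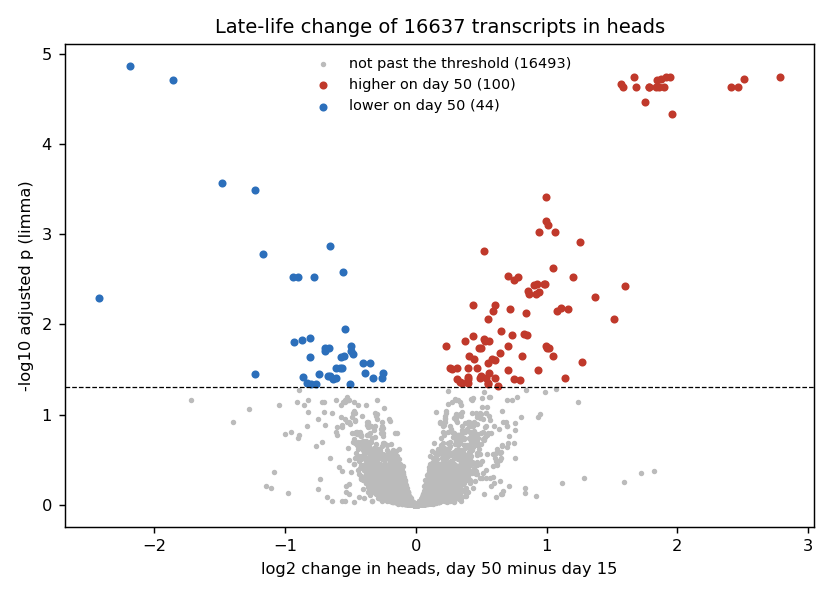
Change of each of the 16637 transcripts in heads (day 50 minus day 15, log2, horizontal) against -log10 of the limma adjusted p (vertical), with the threshold of 0.05 as a dashed line. The 100 transcripts that rose are red and the 44 that fell are blue, and a group of rising transcripts stands between 1.5 and 3 at the top right.

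FBtr0091895 showed the largest rise. It ran from 10.88 through a median of 11.40 to 12.30 in the 11 heads of day 50, against 7.83 through 8.68 to 9.61 in the 10 heads of day 15. Every day-50 head thus lay above every day-15 head. The means over 6 populations were 11.53 ± 0.482 on day 50 and 8.74 ± 0.432 on day 15 (SD), a change of 2.79 with a standard error of 0.183 (limma adjusted p = 1.82e-05) or 6.91-fold. The smallest change was 2.26, in 3S, and the largest 3.75, in 2C, which has only 1 array a day, of different replicates. Of the arrays left out, the day-50 head of 2C had 8.77, a level of day-15 heads, while the day-15 heads of 3S and 2C had 9.90 and 9.60.

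FBtr0091873 and FBtr0085926 followed it across arrays. Over the 21 arrays their correlations with FBtr0091895 were 0.997 and 0.993, the closest of all transcripts. These correlations pool both days, so the change between the days, shared by all 3, raises them. No correlation within a day was taken. FBtr0091873 ran from 10.80 to 12.20 on day 50 (median 11.28), against 8.02 to 9.68 on day 15 (median 8.82), and its change was 2.51 (limma adjusted p = 1.91e-05), the second largest rise. FBtr0085926 ran from 10.94 to 12.38 on day 50 (median 11.40), against 8.10 to 10.22 on day 15 (median 8.96), and its change was 2.47. Neither overlapped between the days, and all 6 populations had a rise of at least 1.95 in both. Whether the array's probes tell these 3 transcripts apart is not given in the sources used here.

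FBtr0083405 showed the largest fall. It ran from 8.24 through a median of 9.34 to 10.26 in day-50 heads, against 9.96 through 11.52 to 13.90 in day-15 heads. The days overlapped, because the day-15 heads of 2S (10.19 and 9.96) and of 3C (10.29 and 9.99) lay near the highest values of day 50. The means were 9.43 ± 0.707 on day 50 and 11.86 ± 1.49 on day 15, a change of -2.42 with a standard error of 0.344 (limma adjusted p = 0.00512). The change was below 0 in all 6 populations and uneven, at -3.75 in 1S, -3.65 in 2C (1 array a day) and -0.51 in 2S. It did not pass in replicate 2 alone (limma adjusted p = 0.157) or without an intensity trend in the fit (limma adjusted p = 0.0918). Over the 21 arrays, again with both days pooled, 2 transcripts were most like it. FBtr0086052 had a correlation of 0.825 and a change of -0.55 (limma adjusted p = 0.00265). FBtr0079575 had a correlation of 0.793 and a change of -0.52 (limma adjusted p = 0.0633), and did not pass.

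FBtr0114503 fell by nearly as much and far more evenly. It ran from 8.44 through a median of 9.10 to 9.42 in day-50 heads, against 10.68 through 11.31 to 11.51 in day-15 heads, with no overlap. The means were 9.04 ± 0.234 on day 50 and 11.22 ± 0.225 on day 15, a change of -2.18 with a standard error of 0.122 and the smallest p of the comparison (limma adjusted p = 1.36e-05). The 6 populations lay between -2.36 and -1.86. Of the arrays left out, the day-50 head of 2C had 10.27, between the days, the day-15 head of 3S had 11.70, and that of 2C had 9.35, a level of day-50 heads.

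**Figure D2:**
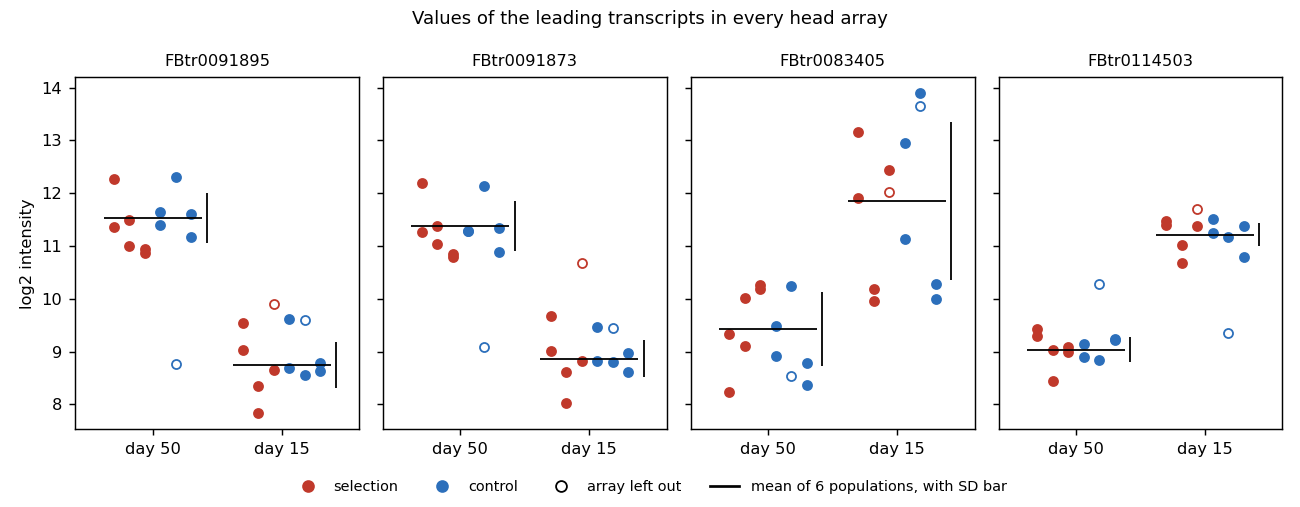
Log2 intensity of the 2 transcripts with the largest rise and the 2 with the largest fall in every head of day 50 (left) and day 15 (right), by regime, with the arrays left out as open circles and the mean and SD of 6 populations in black. The days are apart for 3 of the transcripts, while for FBtr0083405 day-15 heads spread from 9.96 to 13.90 and reach the range of day 50.

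Some of the transcripts that passed have neighbouring numbers and are described here as blocks, which were picked out after their values were seen. Neighbours at most 5 numbers apart made up 31 of the 100 in 10 blocks, which leaves 79 blocks and single numbers. They made up 6 of the 44 in 3 blocks, which leaves 41. The share of all transcripts with so near a neighbour was not counted, so these counts do not show that the changes gather in blocks. Whether a block belongs to 1 gene, or shares probes, is not given in the sources used here, so its members may not be separate evidence. The counts of calls, of days without overlap and of tissue differences still count each member. The largest block ran from FBtr0073873 to FBtr0073884, and all 10 transcripts of the array in it rose, by 1.57 to 1.96. Their median level was 9.97 on day 50 and 8.15 on day 15. Their pairwise correlations over the 21 arrays were 0.949 to 0.994, with both days pooled, so that their shared change raises them. The block from FBtr0082636 to FBtr0082638 rose by 1.08 to 1.20 in its 3 transcripts, at median levels of 12.10 on day 50 and 10.97 on day 15. FBtr0085926 and its neighbour FBtr0085927 rose by 2.47 and 1.59. Other blocks were less even. From FBtr0113909 to FBtr0113920, 8 of the 12 transcripts of the array rose. The 4 of these that passed correlated at 0.602 to 0.968. FBtr0113934 and FBtr0113936 correlated at 0.380. Among those that fell, FBtr0080558 and FBtr0080559 had changes between -1.48 and -0.78, and FBtr0085531 and FBtr0085532 between -1.23 and -0.83.

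In heads the transcripts that rose had moved part of the way by day 30. This is a description with no test, since day 15 and day 50 chose the transcripts, and it leaves out 2 day-30 heads with a day-1 profile. The median level of the 100 was 8.32 on day 5, 8.43 on day 15, 9.12 on day 30 and 9.83 on day 50. For the 44 it was 10.12, 9.80, 9.38 and 9.02 on the same days, so that their day-15 level already lay below that of day 5. The median transcript had covered 49.6% of its rise by day 30 (interquartile range 37.3% to 58.3%), and 53.9% of its fall (35.5% to 76.0%).

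The leading transcripts had their own courses. FBtr0091895 stood at 8.52 ± 0.240 on day 5, 8.74 ± 0.432 on day 15, 10.05 ± 0.675 on day 30 and 11.53 ± 0.482 on day 50 (SD, 6 populations). Days 5 and 15 did not differ beyond their spread, while days 30 and 50 lay above both. FBtr0114503 stood at 11.10 ± 0.420, 11.22 ± 0.225, 10.08 ± 0.437 and 9.04 ± 0.234 on these days. FBtr0083405 stood at 11.58 ± 1.25, 11.86 ± 1.49, 10.90 ± 1.66 and 9.43 ± 0.707, where days 5, 15 and 30 lay within their spread of one another.

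**Figure D3:**
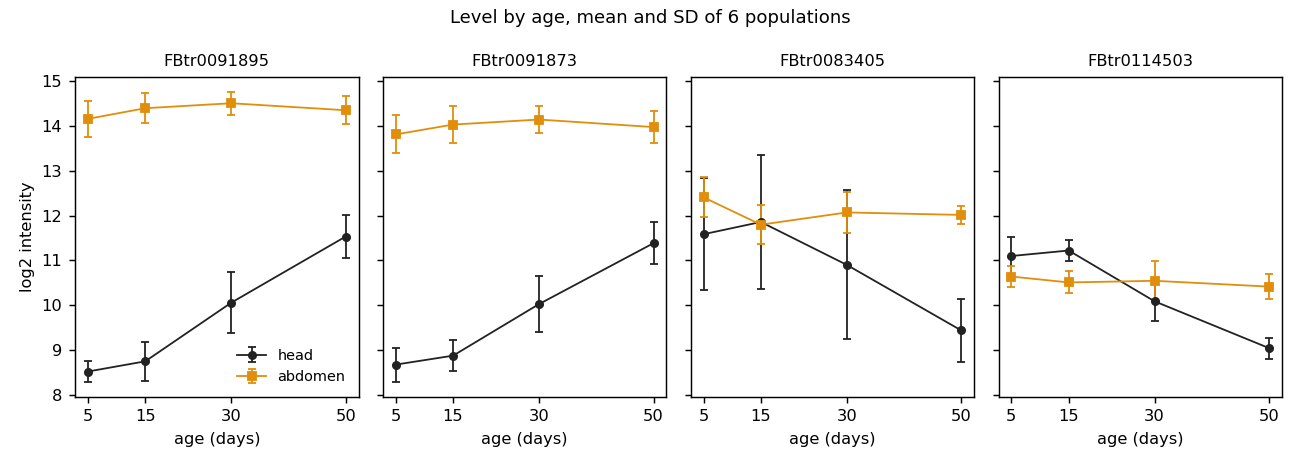
Log2 intensity of the same 4 transcripts by age in days, as the mean and SD of 6 populations, in heads (black) and abdomens (orange), with 2 day-30 heads of day-1 profile left out. Heads move between days 15 and 50, with FBtr0091895 at 8.74 on day 15 and 11.53 on day 50, while abdomens stay near 14.4 for that transcript.

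The 16 transcripts with a gene symbol did not pass the test in either direction. Their changes lay between -0.12 and 0.14, with 11 means above 0 and 5 below, and the lowest limma adjusted p was 0.697. None moved the same way in all 6 populations. All 16 had a 95% confidence interval within 0.5 of 0 on the log2 scale, so that a change of that size in heads is outside the interval for each of them. These intervals use the moderated spread of the fit, not the spread of the 6 populations alone. The 28 transcripts tied to several genes held 0 calls as well, with a lowest limma adjusted p of 0.562. Over all transcripts 0.866% passed, so 0 is the likely count in sets as small as these.

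Among genes of chromatin, HDAC3, a histone deacetylase, had the lowest change, -0.12 (95% confidence interval -0.35 to 0.11). It ran from 11.73 through 12.10 to 12.33 on day 50, against 11.98 through 12.14 to 12.61 on day 15. His4r, which codes for histone H4 outside the histone gene cluster, ran from 14.56 through 14.71 to 14.85 on day 50, against 14.43 through 14.86 to 14.94 on day 15, a change of -0.10. SuUR, which holds back replication of heterochromatin in polytene chromosomes, had a change of 0.08, and kis, a chromatin remodeler of the CHD family, 0.05. The days overlapped for all 4.

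Of the genes of nutrient sensing and metabolism, mio and Wdr24, which code for subunits of the GATOR2 complex that acts upstream of TOR, had changes of -0.09 and 0.06, with intervals of -0.34 to 0.16 and -0.23 to 0.34. Fatp1, a fatty acid transport protein, ran from 12.39 through 12.86 to 13.13 on day 50, against 12.16 through 12.74 to 13.44 on day 15. Its change was 0.05. NaPi-III, a phosphate transporter, had a change of 0.06. These changes were smaller than the spread of the populations, whose SD was 0.291 for mio, 0.313 for Wdr24, 0.270 for Fatp1 and 0.278 for NaPi-III.

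Genes of cell structure and of protein turnover were similar in this respect. The alpha-Spec transcript, for a spectrin of the membrane skeleton, had the highest change of the 16, 0.14 (interval -0.12 to 0.39), with 5 of 6 populations above 0. It ran from 10.50 through 10.98 to 11.22 on day 50, against 10.02 through 10.85 to 11.29 on day 15. LanA, the laminin alpha chain of basement membranes, had a change of -0.04, and fend, a membrane protein known from motor axon guidance, 0.03. Uba1, the enzyme that activates ubiquitin, had a change of 0.03, and rdx, an adaptor of a ubiquitin ligase that acts on the Hedgehog pathway, 0.02. sle, known for the nucleoli of brain cells, had a change of 0.05, with the widest interval of the 16 (-0.32 to 0.41). CG31178 and CG16974 had changes of 0.07 and -0.09.

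**Figure D4:**
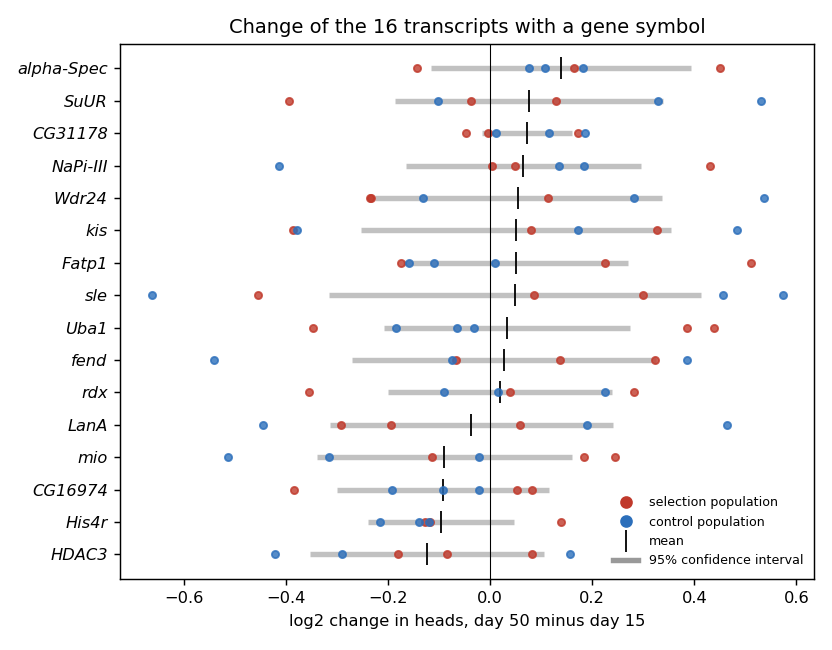
Change of the 16 transcripts with a gene symbol in heads (day 50 minus day 15, log2), with 1 point per population (selection red, control blue), the mean as a black tick and its 95% confidence interval in grey. All intervals cross 0 and lie within 0.5 of it, and every transcript has populations on both sides of 0.

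The difference between the regimes was tested in the same fit, as the change of selection heads minus that of control heads. It asks whether populations bred for late reproduction aged differently in head transcripts from day 15 to day 50. No transcript passed (0 of 16637, 0%), the smallest limma adjusted p was 0.898, and 838 transcripts (5.04%) had an unadjusted p under 0.05. The labels describe selection and control populations set up in pairs, without tying the population number to a pair. With that number as a replicate block, which leaves 2 residual degrees of freedom, 6 passed, 5 with a higher change in selection and 1 with a lower one. FBtr0091895 changed by 2.65 in selection and 2.93 in control heads, and FBtr0114503 by -2.17 and -2.19. The difference for FBtr0091895 had a 95% confidence interval of -1.08 to 0.52, and that for FBtr0114503 of -0.52 to 0.55. FBtr0083405 changed by -2.16 in selection and -2.69 in control heads, a difference of 0.53 with an interval of -0.98 to 2.03.

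Below the threshold, the change was higher in selection for 27 of the 100, with a median difference of -0.15, and for 21 of the 44 that fell, with a median of -0.02. Over all 16637 transcripts it was higher in selection for 46.5%, with a median difference of -0.02. An unadjusted p under 0.05 for the regime difference was found for 23 of the 100 and 4 of the 44, against 5.04% of all transcripts. Both p-values of a transcript use the same residual spread, and the 100 include blocks of neighbouring numbers, so these counts do not stand apart from the choice of the 100 and were not tested as a set. The block from FBtr0073873 to FBtr0073884 had a median change of 1.39 in selection and 2.19 in control heads, and that from FBtr0082636 to FBtr0082638 of 0.57 and 1.76.

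The transcripts with the smallest p of the regime difference did not pass and are given as values. FBtr0100586 changed by 0.57, 0.55 and 0.90 in the selection populations and by -0.08, -0.11 and -0.45 in the control populations. FBtr0273201 changed by a mean of 0.09 in selection and -1.17 in control heads. FBtr0075073 changed by 0.45 and -0.87. For these 3 the change was thus higher in selection. On the other side, FBtr0084351 changed by -0.73 in selection and -0.08 in control heads, FBtr0078195 by -0.49 and 0.43, and FBtr0088320 by -0.22 and 0.24.

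Abdomens of the same populations and days were measured on 24 other arrays, and the head change minus the abdomen change was tested for each transcript. It passed for 33 of the 16637 (0.198%), with a higher change in heads for 25 (0.15%) and a lower one for 8 (0.0481%). With all 24 heads 10 passed, and leaving out a population gave 18 without 1S or 1C, 19 without 3S and 76 without 2C. The lower ones were 2 without 1S, 1C or 3S and 34 without 2C. With the population number as a replicate block 56 passed, 38 higher and 18 lower. Of these 33, 30 had also changed in heads, 25 upward and 5 downward, and 32 reached 2-fold. The test in heads and the test between tissues use the same head averages, which favours this overlap and its directions. The abdomen change of 30 of the 33 lay within 0.5 of 0. The share of all transcripts within that limit was not counted, and the median abdomen change of all transcripts was -0.02. The count of 30 therefore does not set the 33 apart. FBtr0091895 stood at 2.79 in heads and -0.05 in abdomens, a difference of 2.83 (95% confidence interval 2.29 to 3.37, limma adjusted p = 0.00246). FBtr0114503 stood at -2.18 in heads and -0.09 in abdomens, a difference of -2.09 (limma adjusted p = 0.00246). For FBtr0091873 and FBtr0083405 the differences were 2.57 and -2.64. All 10 transcripts of the block from FBtr0073873 to FBtr0073884 passed, with abdomen changes of 0.09 to 0.33.

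In abdomens the 144 spread to both sides of 0. The median abdomen change was 0.05 for the 100 that rose in heads, from -0.48 to 0.85, with 56 of them above 0. It was -0.10 for the 44 that fell, from -1.20 to 0.46, with 9 above 0. Over all transcripts it was -0.02, with 44.1% above 0. The abdomen change was up in all 6 populations for 17 of the 100, against 3.2% of all transcripts, and down in all 6 for 6 of the 44, against 1.63%. Either way, 4.84% of all transcripts had 1 direction in the 6 abdomens.

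**Figure D5:**
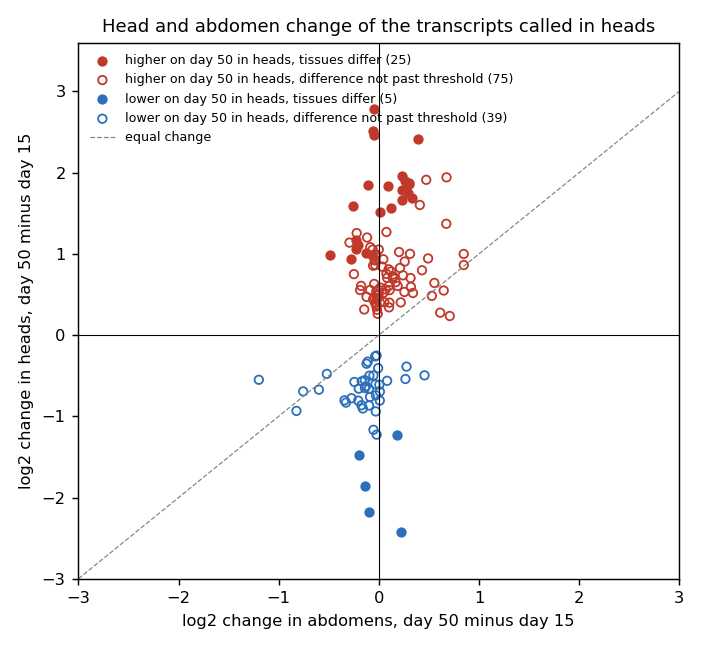
Change of the 144 transcripts in heads (vertical) against their change in abdomens (horizontal), both day 50 minus day 15 on the log2 scale, with filled points where the 2 tissues differed past the threshold and a dashed line of equal change. Filled points lie far above or below 0 in heads and near 0 in abdomens, with 25 above and 5 below.

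The tissues also differed in where these transcripts are found. On day 5, which the late-life comparison does not use, FBtr0091895 was 5.64 lower in heads than in abdomens, and FBtr0091873 and FBtr0085926 were 5.14 and 5.19 lower. In the 24 abdomens FBtr0091895 ran from 13.69 to 15.11 on day 50, against 13.82 to 14.98 on day 15. Even on day 50 the heads thus stayed below every abdomen. The 200 transcripts with the largest abdomen excess on day 5 had a median head change of 0.01 (interquartile range -0.05 to 0.11). Of these 200, 8 rose, or 4%, against 0.601% of all transcripts, and the 8 include the 3 transcripts. Whether RNA of abdominal origin has a share in the rises was not tested. The abdomen excess on day 5 exceeded 1 for 28 of the 100 that rose, against 24.7% of all transcripts.

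Of the 44 transcripts that fell, 24 were higher in heads than in abdomens by more than 1 on day 5. The same held for 8 of the 100 that rose and for 11.8% of all transcripts. The median abdomen minus head difference on day 5 was -1.22 for the 44, 0.25 for the 100 and 0.25 for all transcripts. This was not tested as a set. A fall can pass only from a head level that leaves room for it, so the choice of the 44 may favour a head excess. On day 15, 2 of the 44 stood below 8.16, the lower quartile of the mean head level, against 24.8% of all transcripts.

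The 2 biological replicates share no array, and transcripts that passed in either had the same direction in the other. They measure the same populations again: the 4 of replicate 1 are among the 5 of replicate 2, and 2C has both days in neither. Their agreement is therefore not agreement between separate populations. In replicate 1 alone, with 4 populations, 47 transcripts rose and 10 fell. All 57 had the same direction in replicate 2, with median changes there of 0.98 and -1.11, in 5 populations. In replicate 2 alone 36 rose and 13 fell, and all 49 had the same direction in replicate 1, with medians of 1.504 and -0.82. Of all transcripts, 47.9% rose in replicate 2 and 47.6% in replicate 1.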

How the data were processed

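Labelled cDNA of unmated female heads and abdomens was hybridised to single-colour arrays with Cy3. The deposited values are log2 intensities made by the authors with RMA, per the submitters' processing notes, a method of background correction, quantile normalization and probe summary. Which arrays were normalized together is not given in the sources used here, nor are a genome build or an annotation release. No filter on low values was used. There is no read depth in array data; the number of arrays limits the precision.

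The 12 averages of population and day were fitted in limma 3.58.1 (R 4.3.3) with population, day and regime by day, variances moderated along an intensity trend, and two-sided tests with Benjamini-Hochberg adjustment over 16637 transcripts. This left 4 residual degrees of freedom, with 7.62 prior ones. The head minus abdomen difference was fitted in the same way on 12 within-population differences. The fits were tried on simulated averages and differences of population and day, not on simulated arrays, drawn independently with the residual spread of the data. The p-values, standard errors and confidence intervals rest on the spread between populations only in part. That spread is moderated toward the spread of transcripts of similar level, which carries more of the degrees of freedom.

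Named transcripts were the 2 largest changes each way among those past the threshold with 1 direction in all 6 populations, the 2 most like the leading transcript each way, every transcript with 1 gene symbol, and the 3 smallest p each way where none passed. RefSeq synonyms tied 8 symbols as a whole synonym and 8 as part of one. Members and lists were chosen with earlier results of these data known. The 12 gene lists held at most 4 tied transcripts each and were not described. Alternatives were other scalings, filters, array choices, blocks and left-out populations.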

Additional observations from a re-analysis of the deposited data

Results flagged for a closer look

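Outliers were looked for in 40 groups of values, and 2 were found, where chance alone gives about 1 in 20 groups. His4r changed by 0.138 in population 2S, while the other 5 populations lay between -0.22 and -0.12. FBtr0091895 had 9.61 in the day-15 head of control population 1C, replicate 2, above the other 4 control heads of that day, which lay between 8.56 and 8.79.

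The late-life change differed between heads and abdomens by the test of the difference itself for the 4 leading transcripts, by 2.83 for FBtr0091895, 2.57 for FBtr0091873, -2.64 for FBtr0083405 and -2.09 for FBtr0114503 (limma adjusted p of 0.00246, 0.00257, 0.00413 and 0.00246). Outside the arrays compared, the day-50 head of control population 2C, replicate 1, had a day-1 score of 1.23, above all 21 arrays kept.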

How the results depend on the processing

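The direction of the 6 named transcripts that passed held in all 131 alternative values, and 124 of these still passed. All 6 had 1 direction in all 6 populations and most alternatives refit the same arrays, so a kept direction was favoured in advance. FBtr0083405 did not pass without an intensity trend, with days 5 and 30 added, in replicate 2 alone or without the population block, and FBtr0086052 not with all 24 heads or in 1 replicate alone. Of 371 alternative values of the 17 that did not pass, 4 passed, all of FBtr0079575, and 39 had the opposite sign. The 144 late-life calls became 35 with all 24 heads, 64 with the day-50 head of 2C put back, 92 and 73 with the day-15 heads of 2C and of 3S put back, 41 among transcripts above the median level, 68 without an intensity trend, 91 with days 5 and 30 added (187 when 2 day-30 heads of day-1 profile were dropped, chosen after seeing the data), 57 in replicate 1 and 49 in replicate 2. Leaving out each population gave 77 to 174. Of the 144, 62 passed in all 6 such fits and 4 in none. All kept their direction, but 140 had 1 direction in all 6 populations, which leaving out 1 population cannot reverse. Without the population as a replicate block 70 passed, and with single arrays and the biological replicate number as a replicate block 275, which counts arrays and not populations. The regime difference stayed at 0 calls except for 0 to 1 on leaving out a population (1 without 3C) and 6 with the population number as a replicate block. The 33 tissue differences became 10 with all 24 heads, 18 to 76 on leaving out a population, and 56 with that block. The deviations of same-numbered selection and control populations from their regime means correlated at -0.05, 0.35 and 0.01, so the data do not settle whether the numbers mark pairs. Quantile normalization and median centring gave 125 and 126 late-life calls and 36 and 39 tissue differences. The causes of these shifts were not tested. Signal over background could not be judged, because the files give no background. With 3 populations a regime, 4 residual degrees of freedom and 3 averages of a single array, precision was limited. The smallest changes that passed, 0.24 and -0.25, were in transcripts at 7.58 and 8.09 on day 15. Both levels lay below 8.16, the lower quartile of the mean head level over all transcripts. Of the 100 that rose, 33 stood below it on day 15, as did 2 of the 44 that fell and 24.8% of all transcripts.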
